A study of Homo sapiens with 9 samples.

Results

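The mRNA levels of 9 cytokine genes were followed by RNA-seq in a breast cancer line and its 2 metastatic sub-populations: IL1A and IL1B of the IL-1 family, IL6, IL11 and LIF of the IL-6 family, IL24 of the IL-10 family, and the colony-stimulating factors CSF1, CSF2 and CSF3. They were taken by gene symbol from the deposited count table, in which 9 of 58884 genes are these members. The cells were the human MDA-MB-231 breast cancer line (Par), a claudin-low line, and the sub-populations LM2 and BrM2, which were selected from it in mice for colonization of the lung and of the brain. No drug, transgene or knockdown separates the lines in the sample labels, and all of them were grown as monolayers in DMEM with serum for 3 days. Each line had 3 biological replicates, taken at different passages, which makes 9 libraries. LM2 and BrM2 are each 1 selected line, so the replicates measure the spread between passages of that line and not between independent selections.

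IL-1 alpha and IL-1 beta signal through the same receptor pair, IL1R1 and IL1RAP, to NF-kappa-B, and IL-1 beta is released after the inflammasome protease caspase-1 has cut its precursor. IL-6, IL-11 and LIF each bind a different receptor chain and share the signalling chain gp130, the product of IL6ST, which acts through STAT3. The colony-stimulating factors drive the survival and differentiation of macrophages and granulocytes, and tumour cells that secrete any of these cytokines can act on themselves and on the myeloid cells and stroma around them. The files used here hold mRNA counts only, and not the secreted protein.

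The depth was 19.9 to 23.9 M counts on genes in the Par libraries, 23.6 to 24.5 M in LM2 and 14.4 to 22.1 M in BrM2. A level is given in CPM, counts scaled to a common TMM-normalized library size, and 3 counts, taken as the floor, correspond to between 0.115 and 0.221 CPM. The libraries numbered 1 stood apart in all 3 lines, with normalization factors between 0.85 and 0.95 against 1.03 to 1.07 for the other numbers, and libraries with the same number deviated together. The tests below are edgeR's quasi-likelihood test over 13018 genes with Benjamini-Hochberg adjustment, given without the replicate number and, where the call differs, with the number as a block. The cells carried the mesenchymal markers of MDA-MB-231, with 13148 to 37754 VIM counts, 10759 to 18397 CD44 counts and 23542 to 49779 AXL counts per library, and the epithelial cadherin CDH1 had at most 37. Other epithelial genes were expressed, with 6990 to 22510 KRT8 counts and 6882 to 14359 KRT18 counts per library. EPCAM had 55 to 202 counts and CLDN7 156 to 304. The claudin gene CLDN4 had 1850 to 2197 counts in Par, 111 to 156 in LM2 and 216 to 443 in BrM2. Of 8 leukocyte markers, 6 had at most 10 counts in every library, among them PTPRC, CD3E and CD68. The exceptions were CD14 and CSF1R, and the summed level of the 8 ranged over 8.34 to 17.7 CPM in Par, 4.41 to 10.4 CPM in LM2 and 2.34 to 4.87 CPM in BrM2. Of 6 endothelial and stromal markers, 3 had at most 10 counts in every library, among them DCN. PECAM1 had 39 to 183 counts, PDGFRB 95 to 676, and LUM 19 to 44 in Par and at most 4 in the other lines. The sum of the 6 was 35.3 to 36.4 CPM in Par, 6.45 to 12.9 CPM in LM2 and 9.45 to 14.2 CPM in BrM2, most of it PDGFRB. Their part in the results was not tested.

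The 250 bases before the transcription start were read from RefSeq (GRCh38.p14) for the members that the RefSeq promoter table holds, which are IL1A, IL1B, IL6, IL11, IL24 and CSF2. Of these, 4 are shown, because IL1A and IL1B are neighbours that moved by unequal amounts, IL11 had the highest level per kb of exon in both sub-populations, and IL6, of the same family as IL11, did not follow it. Each is written 5′ to 3′ on the strand of its gene and ends at the base before the start. The positions are chr2:112784494-112784743 on the minus strand for IL1A, chr2:112836780-112837029 on the minus strand for IL1B, chr19:55370464-55370713 on the minus strand for IL11 and chr7:22726950-22727199 on the plus strand for IL6. Capitals mark matches, on either strand, to the motifs listed after the sequences.
IL1A: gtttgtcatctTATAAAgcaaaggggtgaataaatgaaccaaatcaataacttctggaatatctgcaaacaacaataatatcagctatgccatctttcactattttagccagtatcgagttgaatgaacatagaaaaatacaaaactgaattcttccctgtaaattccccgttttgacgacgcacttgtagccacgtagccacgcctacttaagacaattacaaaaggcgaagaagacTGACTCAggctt
IL1B: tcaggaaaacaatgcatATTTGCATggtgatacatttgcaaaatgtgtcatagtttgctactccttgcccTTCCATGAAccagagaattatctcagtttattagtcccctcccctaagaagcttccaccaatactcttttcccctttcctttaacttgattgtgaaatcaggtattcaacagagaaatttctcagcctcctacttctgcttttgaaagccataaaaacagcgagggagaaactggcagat
IL11: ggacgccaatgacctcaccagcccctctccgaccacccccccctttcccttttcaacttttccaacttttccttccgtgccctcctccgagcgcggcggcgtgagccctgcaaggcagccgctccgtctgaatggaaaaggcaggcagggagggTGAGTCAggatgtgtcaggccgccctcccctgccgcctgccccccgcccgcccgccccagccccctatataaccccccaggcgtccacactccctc
IL6: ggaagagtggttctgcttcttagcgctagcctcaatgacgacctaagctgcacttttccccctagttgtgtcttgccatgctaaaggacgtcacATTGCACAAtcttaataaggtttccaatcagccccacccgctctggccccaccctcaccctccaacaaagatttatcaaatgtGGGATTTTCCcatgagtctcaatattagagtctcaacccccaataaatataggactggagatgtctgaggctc

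The AP-1 motif (TGANTCA) was found in IL1A, 12 bases before the start, and in IL11, 96 bases before it, and 6.57% of the 35116 promoters of the table hold a match of it. IL6 had a match to the C/EBP motif (TTNNGCAAT, present in 2.04% of promoters) and, 73 bases before the start, one to the NF-kappa-B consensus (5.21%). In IL1B the search found the octamer (ATGCAAAT, 1.63%) and a STAT motif (TTCNNNGAA, 6.57%), and in IL1A also a TATAAA (10.7%), which at 239 bases before the start lies far from the usual place of a TATA box. CSF2 had 1 STAT match, IL24 had no match, and no match overlapped another. The table holds a second start site of IL1A, whose window, not shown, has 2 AP-1 matches at 105 and 55 bases before that start and no TATAAA. A match describes the letters of the window, and no binding was measured in these files.

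IL1B, the secreted form of IL-1 that needs cutting to become active, rose in both sub-populations and rose more in LM2. The gene lies on chromosome 2 (GRCh38.p14, 112829751 to 112836779, minus strand). Its level was 0.263, 0.242 and 0.55 CPM in the Par libraries, which is 5, 5 and 14 counts, then 39.4, 33.3 and 24.3 CPM in LM2 and 7.3, 5.61 and 3.36 CPM in BrM2. The 3 lines did not overlap, with LM2 highest, BrM2 between and Par close to the floor. LM2 exceeded Par by a log2 fold change of 6.47 (SE 0.47, adjusted p = 0.00012), an 88.3-fold rise and the rank of 18 among 13018 genes ordered by rise. The rise in BrM2 was 3.88 (SE 0.44, adjusted p = 0.00061), or 14.8-fold, and the level of BrM2 was 5.98-fold lower than that of LM2 (log2 −2.58, SE 0.37, adjusted p = 0.0033). The Par level rests on few counts, which leaves the size of the folds against Par less certain than their direction, with a 95% interval of 5.40 to 7.53 for LM2 on the log2 scale. Without the libraries numbered 1 the 3 log2 fold changes were 6.12, 3.46 and −2.67.

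**Figure D1:**
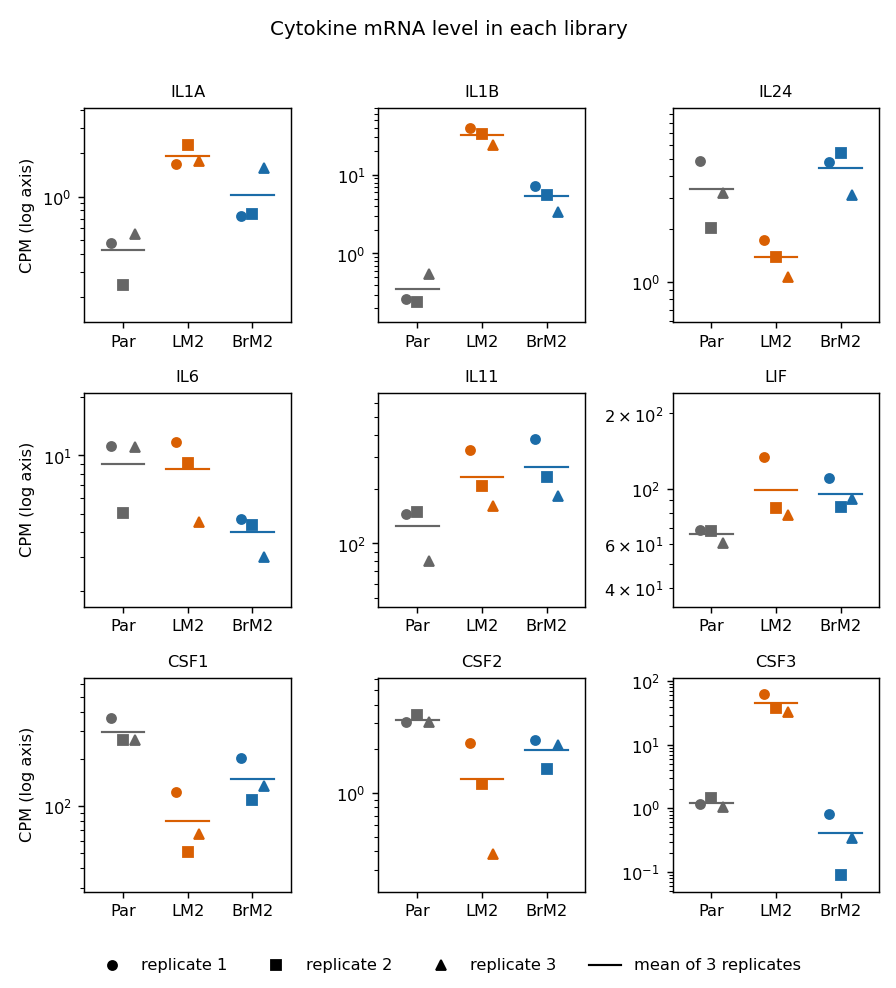
Level of each of the 9 cytokine mRNAs in CPM (vertical log axis, one scale per gene) in Par, LM2 and BrM2, with 1 point per library, a symbol per replicate number and a line at the mean of 3 replicates. IL1B and CSF3 in LM2 lie apart from both other lines, and CSF1 is highest in the 3 Par libraries.

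IL1A, which encodes the IL-1 that is active without caspase-1, had few counts: 9, 5 and 14 in Par, 34, 56 and 46 in LM2 and 10, 17 and 33 in BrM2. In CPM the Par libraries lay between 0.242 and 0.55, below BrM2 at 0.737 to 1.58 and LM2 at 1.69 to 2.29, with no overlap between any 2 lines. The gene was not tested with the others, because its largest normalized count, 47.06, fell just under the threshold of the filter, 47.15. In fits with other filters the log2 fold change of LM2 over Par was between 2.16 and 2.20, with an adjusted p of 0.0024 over the 34056 genes with any count and of 0.012 over 15864 genes kept by edgeR's filterByExpr. For BrM2 over Par it was 1.27 (adjusted p = 0.13) without a filter and 1.29 (0.087) with filterByExpr, and with the replicate block the adjusted p was 0.0044 and 0.028. BrM2 over LM2 was −0.89 (adjusted p = 0.38) and −0.88 (0.23), and with the block the adjusted p was 0.015 and 0.054. The fitted values had the direction of those of IL1B and were smaller.

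The ratio of IL1B to IL1A counts within a library does not depend on scaling. It was 0.556, 1 and 1 in Par, 23.3, 14.6 and 13.8 in LM2 and 9.9, 7.47 and 2.12 in BrM2. IL1B counts were at most as many as IL1A counts in the 3 Par libraries and more in all 6 others. The lines did not overlap, and the 2-sided exact permutation test gave p = 0.1 for each pair of lines, the smallest value that 3 against 3 allows. The genes are 45.3 kb apart on chromosome 2. The nearest tested neighbours on either side, CKAP2L at 9.3 kb from IL1A and PSD4 at 337.2 kb from IL1B, did not pass the test in any comparison, with log2 fold changes of 0.36 and 0.88 in LM2 over Par (adjusted p = 0.83 and 0.17). Of the next tested genes, SLC20A1 at 110.1 kb from IL1A did not pass either. PAX8, at 379.2 kb from IL1B, was lower in BrM2 than in Par (log2 −1.06, adjusted p = 0.0092) and LM2 (log2 −1.43, adjusted p = 0.0033). In LM2 over Par PAX8 did not pass (log2 0.36, adjusted p = 0.38).

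**Figure D2:**
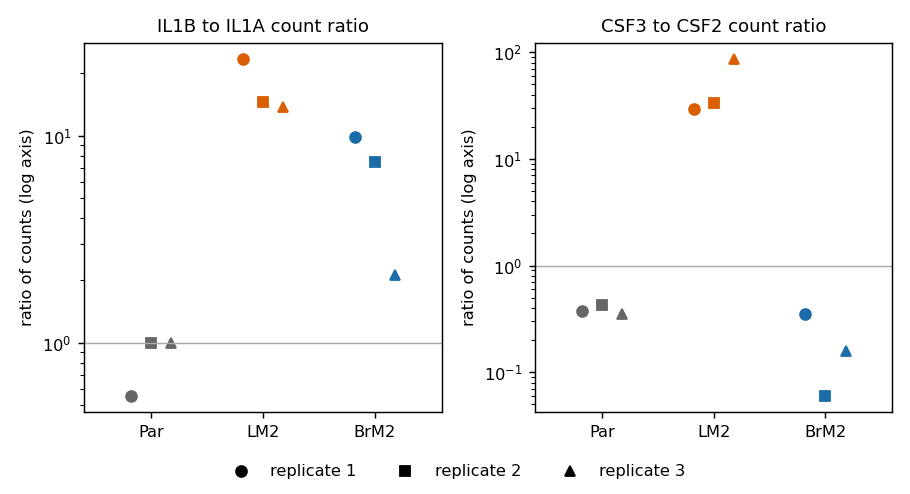
Ratio of IL1B to IL1A counts (left) and of CSF3 to CSF2 counts (right) within each library, on log axes, by line, with a symbol per replicate number and a grey line at a ratio of 1. The CSF3 to CSF2 ratio is above 1 in the LM2 libraries and below 1 in the libraries of both other lines.

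IL24 encodes an IL-10 family cytokine studied for its effect on tumour cell death. Its level was 4.83, 2.03 and 3.22 CPM in Par, 1.74, 1.39 and 1.07 CPM in LM2 and 4.79, 5.39 and 3.12 CPM in BrM2. LM2 was below every library of both other lines, while Par and BrM2 overlapped. BrM2 was 3.17-fold above LM2 (log2 1.66, SE 0.38, adjusted p = 0.029), and the fall of LM2 below Par (log2 −1.27, SE 0.38) had an adjusted p of 0.08 without and 0.0084 with the replicate block. The BrM2 to LM2 call was lost in 5 of 9 fits that each left out 1 library, those without Par replicate 3, LM2 replicates 2 and 3 and BrM2 replicates 1 and 2, where the adjusted p was 0.053, 0.12, 0.12, 0.066 and 0.12. IL24 shares 823 of its 1979 exon bases with FCMR on the opposite strand. The strand that was counted is not given in the sources used here, so that IL24 counts could include FCMR reads. FCMR itself had 6.64 to 17.8 CPM and did not pass the test in any comparison (log2 0.22, 0.12 and −0.11, adjusted p = 0.88, 0.93 and 0.94).

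Of the 8 members tested, 3 passed in LM2 over Par (IL1B and CSF3 higher, CSF1 lower), against 8.67% of all 13018 genes, of which 4.16% were higher and 4.51% lower. In BrM2 over Par 1 passed, IL1B, against 13.2% of all genes, with 6.24% higher and 7% lower. In BrM2 over LM2 3 passed (IL24 higher, IL1B and CSF3 lower), against 8.1%, with 4.09% higher and 4.01% lower. With the replicate block the counts were 7, 6 and 5, against 34.5%, 42.7% and 37.5% of all genes. The libraries of the 2 lines did not overlap for 7, 7 and 3 of the 8, against 25.1%, 31.3% and 23.2% of all genes. The median log2 fold change of the 8 was 0.24, −0.15 and 0.07, and that of all genes 0.01, −0.02 and −0.03. The medians of the members near 0 cover changes in opposite directions.

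**Figure D3:**
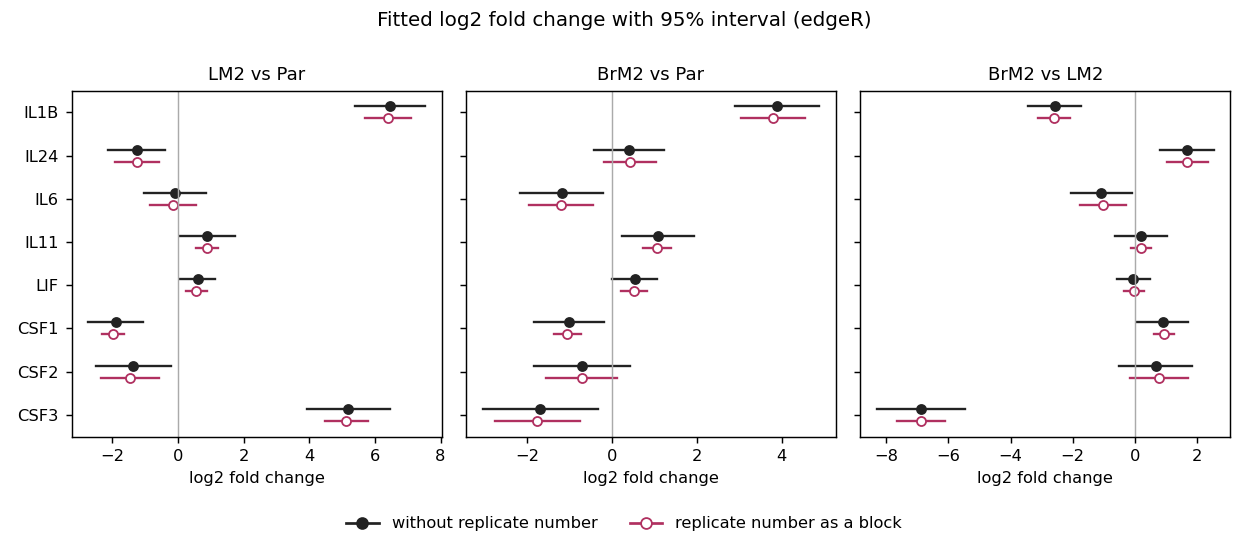
Log2 fold change of the 8 tested cytokine genes with its 95% interval (horizontal axis) in the 3 comparisons, from edgeR without the replicate number (filled) and with it as a block (open). The intervals of IL1B lie on 1 side of 0 in all 3 panels. The CSF3 estimates without the block are 5.19 in LM2 over Par and −6.88 in BrM2 over LM2. The block narrowed the intervals while the estimates moved by less than their SE.

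IL11, which encodes a gp130 cytokine linked to bone resorption and metastasis in breast cancer models, had the first or second level per kb of exon in every line, as described with the order of the members. Its level was 145, 149 and 80.4 CPM in Par, 328, 208 and 162 CPM in LM2 and 378, 234 and 182 CPM in BrM2. Both sub-populations were above Par in every library and overlapped with each other, and replicate 3 was lowest in all 3 lines. The log2 fold change over Par was 0.90 for LM2 (SE 0.37, adjusted p = 0.22) and 1.08 for BrM2 (SE 0.38, adjusted p = 0.1). With the replicate block these were 0.88 (SE 0.15, adjusted p = 0.0011) and 1.06 (SE 0.15, adjusted p = 0.00023), so the call depended on the block. The difference between BrM2 and LM2 was 0.19, with an interval of −0.65 to 1.03, or −0.14 to 0.51 with the block.

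LIF, which signals through LIFR and gp130, took a similar course with a smaller step. The Par libraries had 68.5, 67.9 and 60.8 CPM, LM2 134, 84.1 and 78.7 CPM and BrM2 110, 84.2 and 91 CPM. All 6 libraries of the sub-populations exceeded the 3 of Par. LM2 differed from Par by a log2 fold change of 0.59 (SE 0.24, adjusted p = 0.2) and BrM2 by 0.53 (SE 0.24, adjusted p = 0.2), and with the block the adjusted p was 0.012 and 0.013. Without the libraries numbered 1 the LM2 value was 0.34 (adjusted p = 0.052) and the BrM2 value 0.46 (adjusted p = 0.014). LM2 and BrM2 differed by −0.06, with an interval of −0.59 to 0.48.

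IL6 did not follow IL11 and LIF. The levels were 11.1, 5.04 and 11.1 CPM in Par, 11.7, 9.18 and 4.52 CPM in LM2 and 4.72, 4.37 and 2.97 CPM in BrM2. Par and LM2 overlapped (log2 −0.10, interval −1.05 to 0.84, adjusted p = 0.94), and the sign of that difference turned when a single library was left out. The BrM2 libraries were below all Par libraries, by 1.18 on the log2 scale (log2 −1.18, SE 0.43), with an adjusted p of 0.12 without and 0.017 with the block. Against LM2 the value was −1.08 (adjusted p = 0.19, with the block 0.034). Par replicate 2 and LM2 replicate 3 were about as low as the highest BrM2 library.

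CSF1, the growth factor of macrophages, fell in LM2. The level was 367, 265 and 265 CPM in Par, 124, 51.3 and 65.9 CPM in LM2 and 202, 110 and 134 CPM in BrM2. Every library of the sub-populations was below every Par library, and BrM2 overlapped LM2 through the high library numbered 1 of LM2. LM2 was 3.73-fold below Par (log2 −1.90, SE 0.37, adjusted p = 0.013), and this call was lost without LM2 replicate 2 (adjusted p = 0.054) or LM2 replicate 3 (0.062). BrM2 was below Par by a log2 fold change of −1.01 (SE 0.36), with an adjusted p of 0.11 without and 0.0002 with the block. BrM2 was above LM2 by 0.89, with an adjusted p of 0.2 without and 0.00064 with the block, and by 0.70, 1.10 and 1.02 within the 3 replicate numbers.

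CSF2, the granulocyte-macrophage factor GM-CSF, was low in all lines. Its counts were 58, 70 and 77 in Par, 44, 28 and 10 in LM2 and 31, 33 and 44 in BrM2. In CPM, Par (3.03 to 3.39 CPM) was above every library of LM2 (0.383 to 2.18 CPM) and BrM2 (1.46 to 2.29 CPM). The log2 fold change of LM2 over Par was −1.37 (SE 0.51, adjusted p = 0.16, with the block 0.015), and that of BrM2 over Par was −0.70 (SE 0.50, adjusted p = 0.46, with the block 0.16).

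CSF3, the granulocyte factor G-CSF, rose in LM2 and was scarce in the other lines. It had 22, 30 and 27 counts in Par, 1279, 940 and 854 in LM2 and 11, 2 and 7 in BrM2. In CPM that is 1.06 to 1.45 in Par, 32.7 to 63.5 in LM2 and 0.0883 to 0.811 in BrM2, with no overlap between lines. LM2 was 36.6-fold above Par (log2 5.19, SE 0.56, adjusted p = 0.00068), the rank of 38 among genes ordered by rise. BrM2 was 117-fold below LM2 (log2 −6.88, SE 0.63, adjusted p = 0.00035), the rank of 11 among genes ordered by fall. BrM2 was also below Par, by a log2 fold change of −1.68 (SE 0.60), with an adjusted p of 0.11 without and 0.0093 with the block. One BrM2 library was under the floor of 3 counts, and the BrM2 values carry a wide counting error. Without the libraries numbered 1 the values were 4.83, −7.37 and −2.54 in the same order, each with an adjusted p of at most 0.0041.

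The ratio of CSF3 to CSF2 counts was 0.379, 0.429 and 0.351 in Par, 29.1, 33.6 and 85.4 in LM2 and 0.355, 0.0606 and 0.159 in BrM2. LM2 held more CSF3 than CSF2 counts in all 3 libraries, and the 6 other libraries held fewer. The 2-sided exact permutation test gave p = 0.1 for LM2 against either line, the smallest possible, and p = 0.2 for BrM2 against Par. The tested neighbours of CSF3 on chromosome 17, PSMD3 at 17.5 kb and MED24 at 1.3 kb, did not pass in any comparison, with log2 fold changes of 0.16 and 0.29 in LM2 over Par (adjusted p = 0.90 and 0.70).

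To compare genes with each other, CPM was divided by the length of the union of exons in kb. The union holds the exons of all annotated transcripts of a gene, and the order depends on it. For IL6 it is 4321 bases and for CSF2 788. In Par the mean CPM was 9.09 for IL6 and 3.15 for CSF2, the reverse of their order per kb. In Par the order of the mean level per kb was CSF1, IL11, LIF, CSF2, IL6, IL24, CSF3, IL1A and IL1B, from 57.1 down to 0.117 CPM per kb. The ranges over the libraries overlapped for the neighbours CSF1 and IL11, IL6 and IL24, and IL1A and IL1B. Within each Par library, IL6 was still above IL24 and IL1A above IL1B. In LM2 the order ran IL11, LIF, CSF3, CSF1, IL1B, IL6, CSF2, IL1A and IL24, from 86.8 to 0.707 CPM per kb. Only for IL11 over LIF and IL1B over IL6 did the ranges over the libraries not overlap. Within each LM2 library, LIF was still above CSF3 and CSF3 above CSF1. In BrM2 the order ran IL11, CSF1, LIF, CSF2, IL24, IL1B, IL6, IL1A and CSF3, from 98.9 to 0.185 CPM per kb. There the ranges of the pairs CSF1 and LIF, CSF2 and IL24, IL24 and IL1B, and IL6 and IL1A overlapped. CSF3 thus held the seventh place in Par, the third in LM2 and the ninth in BrM2.

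The sum of the 9 per kb was 129 ± 23.3 (SD, n = 3) in Par, 164 ± 58.2 in LM2 and 160 ± 50.5 CPM per kb in BrM2, and these ranges overlapped. The composition differed more than the sum, and the shares depend on the same exon lengths. CSF1 made up 44.3% ± 5.06 (SD, n = 3) of it in Par, 9.23% ± 2.07 in LM2 and 17.8% ± 2.7 in BrM2. IL11 made up 35.6% ± 7, 52.8% ± 1.86 and 61% ± 5.39. CSF3 was 0.432% ± 0.0801 in Par, 12.3% ± 0.191 in LM2 and 0.106% ± 0.0708 in BrM2, and IL1B was 0.0975% ± 0.066, 6.74% ± 1.02 and 1.12% ± 0.226. LIF stayed between 11.7% and 18.9% in all 9 libraries.

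**Figure D4:**
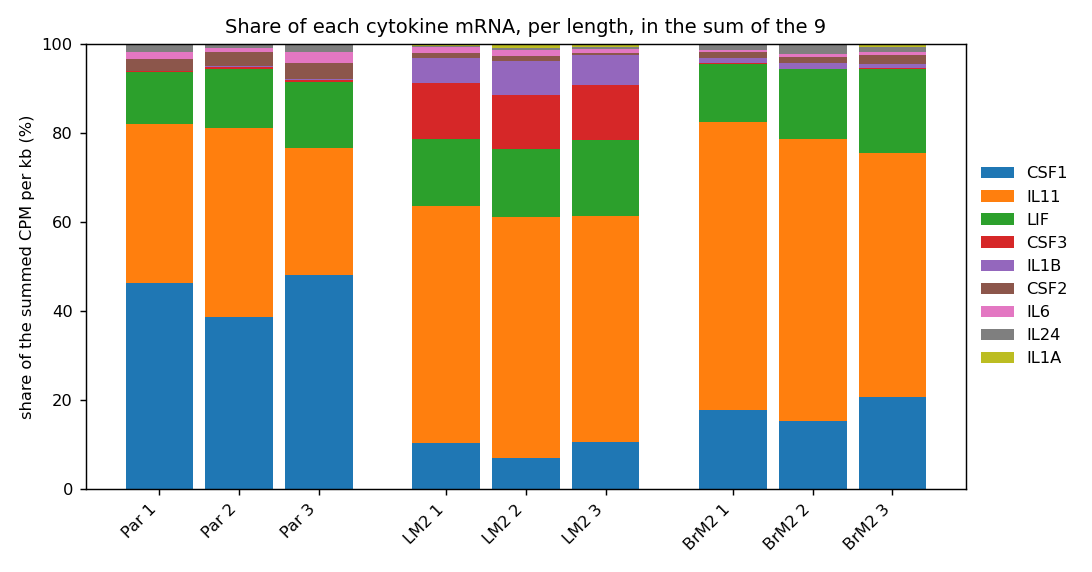
Share of each of the 9 cytokine mRNAs in the sum of their CPM per kb of exon (vertical axis, percent), with 1 stacked bar per library. CSF1 and IL11 fill most of the Par bars, CSF3 and IL1B are visible as broad bands only in the LM2 bars (12.3% and 6.74% on average), and IL11 fills most of the BrM2 bars.

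The correlation of log2 CPM across the 9 libraries, after the mean of each replicate number was taken away, is given as a description, since the libraries come from only 3 lines. It was 0.92 for IL1A and IL1B, 0.92 for IL11 and LIF and 0.85 for CSF1 and CSF2. It was −0.97 for IL1B and CSF1 and −0.96 for IL24 and CSF3, and −0.65 for IL6 and IL11. Among all tested genes, the 3 most like IL1B were CELF2 (Pearson 0.995), CD96 (0.992) and IGSF1 (0.992). Those most like CSF3 were FARP1, ADGRG1 and FNBP1P1 (0.994 each), and those most like CSF1 were NOP14-AS1 (0.995), CCRL2 and MAPRE3 (0.994 each). IL11 was most like RAB38 (0.994), PDSS2 (0.991) and C19orf57 (0.99), LIF like RNF113A (0.991), MED18 and SLC25A20 (0.988 each), and IL24 like RNF14 (0.99), NDUFA4 (0.988) and GALC (0.987). For CSF2 they were ZBTB11-AS1 (0.99), PSMB9 (0.971) and CPNE5 (0.967), and for IL6 THEMIS2 (0.952), CXXC4 (0.943) and FAM210B (0.942).

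The other genes of these pathways were taken from 7 lists with 91 genes, of which 64 were tested. Of the 64, 5 rose and 4 fell in LM2 over Par, 6 rose and 5 fell in BrM2 over Par, and 4 were higher and 1 lower in BrM2 than in LM2. That is 14.1%, 17.2% and 7.81% of them, against 8.67%, 13.2% and 8.1% of all genes, and with the block 30, 32 and 27 passed (46.9%, 50% and 42.2%, against 34.5%, 42.7% and 37.5%). Their median log2 fold changes were 0.03, 0.03 and −0.08.

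In the list of IL-1 receptors, antagonist and processing genes, 15 of 17 were tested. Without the block, 3 rose and 1 fell in each sub-population over Par. That is 26.7% in both, against 8.67% and 13.2% of all genes. The gene that fell was IL1R1, the signalling receptor of IL-1, with 14.7 to 18.2 CPM in Par, 3.82 to 6.17 CPM in LM2 and 3.98 to 6.71 CPM in BrM2. Its log2 fold change was −1.72 in LM2 (SE 0.28, adjusted p = 0.0052) and −1.55 in BrM2 (SE 0.27, adjusted p = 0.0061). The genes that rose were NLRP3, the inflammasome sensor, CASP1, the protease that cuts the IL-1 beta precursor, and CASP4, an inflammatory caspase of the non-canonical inflammasome. With the block, 7 passed in LM2 over Par (4 higher, 3 lower) and 10 in BrM2 over Par (3 higher, 7 lower). That is 46.7% and 66.7%, against 34.5% and 42.7% of all genes. In BrM2 over LM2, 0 passed without the block and 7 with it (1 higher, 6 lower), or 46.7%, against 37.5%.

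NLRP3 went from 4.73 to 5.5 CPM in Par to 23.6 to 36.3 CPM in LM2 (log2 2.52, adjusted p = 0.00035) and 16.9 to 20.9 CPM in BrM2 (log2 1.93, adjusted p = 0.00077). CASP1 had 5, 10 and 16 counts in Par, 77, 153 and 145 in LM2 (log2 3.47, adjusted p = 0.0022) and 15, 67 and 59 in BrM2 (log2 2.31, adjusted p = 0.012). The CASP1 call in BrM2 was lost without Par replicate 2 (adjusted p = 0.053). CASP4 rose by 1.73 in LM2 (adjusted p = 0.00055) and 1.24 in BrM2 (adjusted p = 0.002). In BrM2 over LM2 the 3 genes had log2 fold changes of −0.59, −1.16 and −0.49 (adjusted p = 0.16, 0.14 and 0.14, with the block 0.019, 0.002 and 0.014). With every library of replicate 2 or of replicate 3 left out, the calls of IL1R1, CASP1 and CASP4 over Par were lost in both sub-populations, with an adjusted p of up to 0.27. The adaptor PYCARD did not pass without the block in any comparison, and with the block it passed as lower in BrM2 over Par. The co-receptor IL1RAP had log2 fold changes of 0.15 and −0.53 in LM2 and BrM2 over Par (adjusted p = 0.88 and 0.36). In BrM2 over LM2 the IL1RAP value was −0.68 (adjusted p = 0.26), and it passed as lower with the block.

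IL1RN, which encodes the receptor antagonist of IL-1, was too low to be tested. It had 12, 18 and 13 counts in Par, 1, 0 and 1 in LM2 and 1, 2 and 1 in BrM2. Against the floor of 3 counts per library, the level was at least 5.21-fold lower in LM2 and at least 4.05-fold lower in BrM2, and over all 34056 genes with a count the adjusted p was 0.00062 and 0.0056. The decoy receptor IL1R2 had at most 3 counts in any library.

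**Figure D5:**
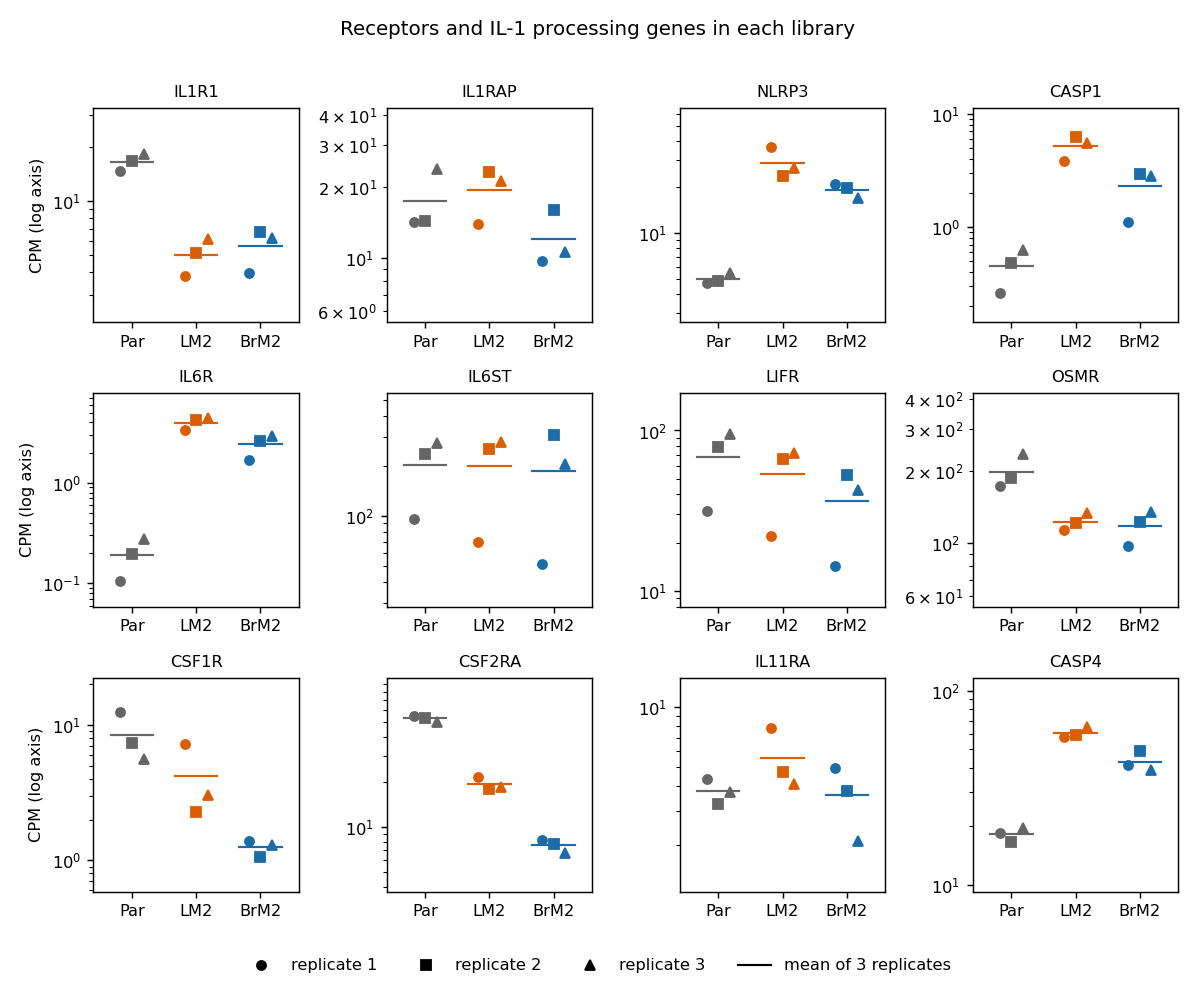
Level in CPM (vertical log axis, one scale per gene) of receptors of the cytokines and of 3 genes of IL-1 beta processing, with 1 point per library, a symbol per replicate number and a line at the mean of 3 replicates. IL1R1 and CSF2RA are highest in Par, NLRP3, CASP1, CASP4 and IL6R are lowest in Par, and IL6ST and LIFR vary mainly with replicate number 1.

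Among the IL-6 family receptors and signal transducers, 13 of 15 were tested, and 1 rose in LM2 and 1 rose and 1 fell in BrM2. That is 7.69% and 15.4%, near the 8.67% and 13.2% of all genes. With the block 4 and 5 passed, or 30.8% and 38.5%, against 34.5% and 42.7% of all genes. IL6R, the receptor chain of IL-6, rose from 2, 4 and 7 counts in Par to 67, 104 and 114 in LM2 (log2 4.30, SE 0.39, adjusted p = 0.00032) and 23, 59 and 61 in BrM2 (log2 3.59, SE 0.40, adjusted p = 0.00052). The chain that fell was OSMR, a gp130 partner for oncostatin M, with a log2 fold change of −0.75 in BrM2 (adjusted p = 0.035) and −0.69 in LM2 with the block (adjusted p = 0.00079). The OSMR call in BrM2 passed in only 1 of 9 fits that left out 1 library, the fit without LM2 replicate 1. IL6ST did not pass in any comparison, with log2 fold changes of −0.0041, −0.11 and −0.10 and intervals that reached from −1.68 to 1.57, and its libraries numbered 1 had 51 to 95.6 CPM against 205 to 305 CPM in the others. LIFR had log2 fold changes of −0.35 in LM2 and −0.91 in BrM2 over Par (adjusted p = 0.85 and 0.43, with the block 0.048 and 0.0003). IL11RA had 3.24 to 4.31 CPM in Par, 4.1 to 7.79 CPM in LM2 and 2.11 to 4.94 CPM in BrM2 and did not pass (adjusted p = 0.48, 0.95 and 0.39). PIAS3, an inhibitor of STAT3, was higher in BrM2 than in LM2 by 0.97 (adjusted p = 0.029), a call that 7 of the 9 fits without 1 library lost.

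Of the 7 receptors of IL24 and the colony-stimulating factors, 2 were tested, and 1, 2 and 1 of them were lower in the 3 comparisons, against 8.67%, 13.2% and 8.1% of all genes called. CSF2RA, the binding chain for GM-CSF, fell by log2 −1.45 in LM2 (SE 0.18, adjusted p = 0.0013) and −2.81 in BrM2 (SE 0.19, adjusted p = 6.8e-05), and BrM2 was below LM2 by log2 −1.36 (SE 0.18, adjusted p = 0.0021). Its counts were 1048, 1104 and 1284 in Par, 433, 442 and 486 in LM2 and 111, 176 and 140 in BrM2. CSF1R, the receptor of CSF1, had 237, 152 and 142 counts in Par, 146, 56 and 79 in LM2 and 19, 24 and 27 in BrM2. It fell in BrM2 (log2 −2.76, SE 0.50, adjusted p = 0.0069), and LM2 over Par was −1.02 (adjusted p = 0.26, with the block 0.0056). CSF3R, the receptor of G-CSF, had 0 counts in all 9 libraries, which allows up to 3 counts per library. CSF2RB, the shared signalling chain for GM-CSF, had 0, 1 and 1 counts in Par, 8, 9 and 5 in LM2 and 5, 9 and 7 in BrM2. Against the floor it was at least 2.27-fold higher in LM2 and 2.62-fold higher in BrM2, with an adjusted p of 0.033 and 0.015 over all genes with a count. The IL24 receptor chain IL20RA had 5, 6 and 9 counts in Par, 37, 34 and 34 in LM2 and 10, 19 and 24 in BrM2, and over all genes with a count its log2 fold change was 2.29 in LM2 (adjusted p = 0.0014) and 1.57 in BrM2 (adjusted p = 0.045). IL22RA1, the other partner chain, had 27, 7 and 19 counts in Par and at most 7 in the others, with a log2 fold change over all genes with a count of −2.65 in LM2 (adjusted p = 0.011) and −1.83 in BrM2 (adjusted p = 0.082, with the block 0.0067). IL20RB had 15 to 31 counts throughout.

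Of 5 tested ligands among 19 relatives of the members, 1 passed in LM2 over Par and 0 in the other comparisons. That is 20%, 0% and 0%, against 8.67%, 13.2% and 8.1% of all genes. With the block 2 passed in each, or 40%, against 34.5%, 42.7% and 37.5%. EBI3, a subunit of IL-27 and IL-35, rose in LM2 (6, 4 and 2 counts in Par and 56, 28 and 38 in LM2, log2 3.20, adjusted p = 0.015). The LM2 call was lost without Par replicate 2 (adjusted p = 0.074) or Par replicate 3 (0.066). In BrM2 EBI3 had 15, 7 and 11 counts (log2 1.68 over Par, adjusted p = 0.17) and passed as higher than Par with the block. IL18, the other caspase-1 substrate of the IL-1 family, had 11 to 18 CPM in Par, 15.8 to 26.5 CPM in LM2 and 18.7 to 23.4 CPM in BrM2, with log2 fold changes over Par of 0.64 and 0.55 (adjusted p = 0.22 and 0.26, with the block 0.0082 and 0.012).

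Of 11 tested genes that IL-1 induces through NF-kappa-B, 1 fell in LM2 over Par, 2 rose in BrM2 over Par and 1 was higher in BrM2 than in LM2, or 9.09%, 18.2% and 9.09%, against 8.67%, 13.2% and 8.1% of all genes. With the block 7, 6 and 4 passed, or 63.6%, 54.5% and 36.4%, against 34.5%, 42.7% and 37.5%. The higher and the lower ones were 3 and 4 in LM2 over Par and 4 and 2 in BrM2 over Par, and all 4 were higher in BrM2 than in LM2. The medians were −0.27, 0.45 and 0.16 on the log2 scale. CCL2, a monocyte chemokine, had 49, 32 and 48 counts in Par, 3 in each LM2 library and 570, 1293 and 1066 in BrM2. It was at least 15.6-fold lower in LM2 than in Par (adjusted p = 0.00022), at least 389-fold higher in BrM2 than in LM2 (adjusted p = 2e-05) and 25-fold higher in BrM2 than in Par (log2 4.64, SE 0.27, adjusted p = 3.6e-05). CXCL1, a neutrophil chemokine, rose in BrM2 (log2 1.57, adjusted p = 0.017), and in LM2 its level was 2.3-fold that of Par (adjusted p = 0.068, with the block 0.014). The CXCL1 call was lost without Par replicate 1 (adjusted p = 0.061), Par replicate 3 (0.055) or BrM2 replicate 3 (0.052). CXCL8 varied from 63 to 396 counts within Par, and BrM2 over Par was log2 1.99 (adjusted p = 0.0504, with the block 0.0031), which passed in 2 of 9 fits that left out 1 library.

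Of 11 STAT3 targets tested, 0 passed in LM2 over Par in edgeR without the block, where 4 had an unadjusted p below 0.05 and DESeq2 called 2, and 1 passed in each of the other comparisons, against 8.67%, 13.2% and 8.1% of all genes. With the block 7, 6 and 5 passed, or 63.6%, 54.5% and 45.5%, against 34.5%, 42.7% and 37.5%, of which 3, 3 and 4 were higher. CEBPD, a transcription factor of the acute phase, fell in BrM2 (79, 46 and 46 counts in Par and 15, 4 and 6 in BrM2, log2 −2.49, adjusted p = 0.045), and 7 of the 9 fits without 1 library lost that call. The CEBPD value ranged from −3.53 without BrM2 replicate 1 to −2.03 without BrM2 replicate 2. JUNB, an AP-1 subunit, was higher in BrM2 than in LM2 (226, 75 and 143 counts against 37, 30 and 27, a 6.52-fold difference, adjusted p = 0.024), and lost that call without LM2 replicate 2 (adjusted p = 0.11), LM2 replicate 3 (0.1) or BrM2 replicate 3 (0.056). Without BrM2 replicate 1 the JUNB difference was log2 1.90. Of 10 tested regulators of cytokine mRNA decay, 1 passed in LM2 over Par, 0 in BrM2 over Par and 1 in BrM2 over LM2. That is 10%, 0% and 10%, against 8.67%, 13.2% and 8.1% of all genes. With the block 1, 2 and 4 passed, or 10%, 20% and 40%, against 34.5%, 42.7% and 37.5%. ZFP36L2, which binds AU-rich elements, fell in LM2 (log2 −0.65, adjusted p = 0.046) and was higher in BrM2 than in LM2 (log2 0.87, adjusted p = 0.013). The fall in LM2 was lost in all 9 fits without 1 library, and the difference between BrM2 and LM2 without LM2 replicate 2 (adjusted p = 0.057) or BrM2 replicate 3 (0.072).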

How the data were processed

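RNA-seq of 9 libraries was used, 3 each for the lines Par, LM2 and BrM2. The authors made stranded mRNA libraries, aligned paired-end reads to hg38 with STAR 2.7.0 and deposited the number of reads counted per gene, as raw counts without normalization. The strand counted is not given in the sources used here. A second deposited table holds the authors' DESeq2 log2 fold changes and p-values and was not used.

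Of 58887 rows, 3 repeated an identifier with identical counts and were dropped. A filter after HTSFilter (100 thresholds from 1 to 200 on the largest count normalized by size factor, loess span 0.3) kept the 13018 genes over 47.15. There the loess curve of the mean Jaccard index of replicates was highest, and the largest unsmoothed mean at any threshold was 0.943. The kept genes hold at least 99.6% of the counts of each library. edgeR 4.0.16 fitted the 3 lines over all 9 libraries with TMM scaling and the 2-sided quasi-likelihood test, with Benjamini-Hochberg adjustment over 13018 genes and a threshold of 0.05. Intervals are 95%. The correlations used a prior count of 2. Where every library of a line had at most 3 counts, that floor replaced its level and the fold is a bound. The floors cover counting error only, and p-values without the block measure the spread between passages. With the block they measure the spread left after the deviation shared by same-numbered libraries is taken out.

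Same-numbered libraries of different lines deviated together (correlations of 0.23 to 0.90 over genes in 9 of 9 pairs). The number was therefore also fitted as a block, which makes that fit a paired one. Values, ranks and counts come from the fit without the number unless the block is named. The common dispersion was 0.11 without and 0.021 with the block. The scripts were tested on simulated data. Alternatives were DESeq2 1.42.0, another scaling, other filters, the block and leaving out libraries. Exon lengths came from GENCODE and positions and promoters from RefSeq.

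The members and lists were chosen with earlier results of these data known. The text names the members, their receptors, the list genes past the threshold and the 3 tested genes most correlated with each member. The list genes that passed only with the block are given as counts, apart from those described with their family. R 4.3.3, limma 3.58.1, Python, numpy, pandas and matplotlib were used besides.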

Additional observations from a re-analysis of the deposited data

Results flagged for a closer look

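Without the replicate block, the change against Par differed between LM2 and BrM2 for 3 cytokine genes. The test was edgeR's of BrM2 against LM2 in the fit of all 3 lines (Benjamini-Hochberg adjustment over 13018 genes). For IL1B the difference was −2.58 on the log2 scale (adjusted p = 0.0033), with a lower level in BrM2 within all 3 replicate numbers. For CSF3 it was −6.88 (adjusted p = 0.00035), lower in all 3 numbers. For IL24 it was 1.66 (adjusted p = 0.029), higher in all 3 numbers, with the overlap with FCMR on the other strand as a limit. The IL24 call was kept in only 4 of 9 fits that each left out 1 library. With the block 5 members passed, these 3 and also CSF1 (log2 0.93, adjusted p = 0.00064) and IL6 (log2 −1.03, adjusted p = 0.034).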

How the results depend on the processing

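Few counts limit IL1A, IL1B in Par, CSF2, and CSF3 in BrM2. Over 18 alternative settings, IL1B kept its direction in all 3 comparisons (log2 6.08 to 7.18, 3.40 to 4.70 and −2.85 to −2.33), and so did CSF3 in LM2 over Par (4.83 to 5.45) and BrM2 over LM2 (−7.71 to −6.36). With every library of replicate 2 left out, the adjusted p of IL1B was 0.078 in BrM2 over Par and 0.2 in BrM2 over LM2, and with replicate 3 left out it was 0.0502 in BrM2 over LM2, and that of CSF3 in LM2 over Par was 0.057. The calls of CSF1 in LM2 over Par and IL24 in BrM2 over LM2 were lost in both cases. Leaving out a replicate number ended 2 of 3 times the calls of IL1R1, CASP1 and CASP4 in both sub-populations (highest adjusted p = 0.27), NLRP3 and CSF1R in BrM2 and CSF2RA in LM2 over Par and BrM2 over LM2, and 1 of 3 times those of IL6R in both and NLRP3 in LM2, while CCL2 kept all 3. The cause was not tested.

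Counts are given for LM2 over Par, BrM2 over Par and BrM2 over LM2 in turn. Genes called numbered 1129, 1723 and 1055, and with the replicate block 4491, 5557 and 4887. The members called were 7, 6 and 5 with the block, and the pathway genes 30, 32 and 27. DESeq2 called 1886 genes in LM2 over Par and 1817 in BrM2 over LM2, with 15 and 10 pathway genes, and 3 members in BrM2 over Par. Without a filter 15 and 18 pathway genes passed in LM2 and BrM2 over Par, and 3 members in BrM2 over Par. Leaving out libraries or a replicate number gave 70 to 4302, 154 to 5254 and 53 to 4244 genes, 1 to 4, 0 to 5 and 1 to 4 members, and 1 to 28, 2 to 30 and 1 to 21 pathway genes. The replicate block without replicate 1, added after seeing the data, gave 3639, 4796 and 3724 genes, 5, 5 and 4 members, and 27, 26 and 19 pathway genes. The block removed no call of a member.

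The log2 ratio of IL1B to IL1A in LM2 over Par was 4.35 and ranged from 3.82 to 4.63 when a number was left out. Small differences changed sign when a library or a number was left out. The ranges were −0.43 to 0.41 for IL6, −0.70 to 0.019 for LIFR and −1.01 to 0.051 for S100A13 in LM2 over Par, −0.0048 to 0.75 for IL24 in BrM2 over Par, and −0.16 to 0.52 for IL11 and −0.20 to 0.22 for LIF in BrM2 over LM2. LIF was 0.12 with the block without replicate 1. None of the values of changed sign passed the test.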
